A study of Mus musculus with 24 samples.

Results

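Srebf2, Scap, Insig1, Insig2, Stard4, Npc1 and Mylip, genes by which a cell senses its sterols and takes up and moves LDL cholesterol, were followed in mouse liver. They are 7 of the 18820 genes that have a probe set of their own on the array, were listed by name, and where a gene had more than 1 probe set the one with the highest mean was used. The livers came from 24 male C57BL/6J mice of 4 to 6 months, 8 on each of 3 diets, with a separate array per mouse. All diets supplied 45% of the energy as fat for 7 weeks. The fat was partially hydrogenated soy oil in the Trans group, canola with palm olein oil in the Cis group and cocoa butter in the Saturated group, so every group was on a high-fat diet and each diet stands for 1 fat source in 1 strain and sex. The question was whether the type of fat alters the genes that set cholesterol synthesis and uptake.

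SREBP2, the product of Srebf2, is a transcription factor held in the membrane of the endoplasmic reticulum. SCAP senses cholesterol there and escorts SREBP2 to the Golgi when sterols are low, where proteases release its active part, while INSIG1 and INSIG2 hold SCAP back when sterols are high. The released factor switches on cholesterol synthesis, LDL uptake and Insig1 itself, and in mouse liver Insig2 is known to follow the feeding state and the circadian clock. STARD4 carries sterols through the cytosol, NPC1 moves LDL-derived cholesterol out of the lysosome, and MYLIP, a ubiquitin ligase induced by LXR, marks lipoprotein receptors for breakdown.

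Promoter windows of RefSeq (250 bases before to 50 after a start site, mouse build GRCm38.p6) were searched for 5 of the 7 genes, 8 windows in all. No window of Stard4 or Npc1 was searched. The 4 windows below belong to the genes of the SREBP2 escort complex, since Srebf2 and Insig1 are the members with the highest r with the cholesterol synthesis enzymes over all livers, Scap is the member with the smallest p between diets and Insig2 is the most variable one. Capitals mark matches on either strand to the sterol regulatory element core CACNCCAC, the form TCACCCCA, the E-box CACGTG, the inverted CCAAT box ATTGG and the GC box GGGCGG.
Srebf2, chr15:82147019-82147318, plus strand: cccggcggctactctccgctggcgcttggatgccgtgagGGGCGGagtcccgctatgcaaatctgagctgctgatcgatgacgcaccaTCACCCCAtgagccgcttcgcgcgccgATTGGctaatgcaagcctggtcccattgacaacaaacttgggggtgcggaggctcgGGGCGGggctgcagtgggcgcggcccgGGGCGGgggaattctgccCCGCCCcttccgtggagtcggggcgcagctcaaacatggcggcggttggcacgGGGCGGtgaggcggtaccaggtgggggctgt
Scap, chr9:110333106-110333405, plus strand: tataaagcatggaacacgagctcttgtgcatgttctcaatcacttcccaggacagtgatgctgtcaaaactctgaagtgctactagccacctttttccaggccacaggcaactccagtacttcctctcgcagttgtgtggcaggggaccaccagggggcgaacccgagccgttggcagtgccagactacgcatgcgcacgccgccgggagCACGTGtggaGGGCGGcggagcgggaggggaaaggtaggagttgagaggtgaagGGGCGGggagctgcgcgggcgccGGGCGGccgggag
Insig1, chr5:28071162-28071461, plus strand: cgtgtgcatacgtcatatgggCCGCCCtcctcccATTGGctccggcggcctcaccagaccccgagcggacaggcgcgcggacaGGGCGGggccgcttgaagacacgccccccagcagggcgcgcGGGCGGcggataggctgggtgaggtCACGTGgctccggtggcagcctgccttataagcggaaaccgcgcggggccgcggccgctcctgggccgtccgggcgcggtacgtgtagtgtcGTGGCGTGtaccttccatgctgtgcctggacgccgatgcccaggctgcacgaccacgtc
Insig2, chr1:121332540-121332839, minus strand: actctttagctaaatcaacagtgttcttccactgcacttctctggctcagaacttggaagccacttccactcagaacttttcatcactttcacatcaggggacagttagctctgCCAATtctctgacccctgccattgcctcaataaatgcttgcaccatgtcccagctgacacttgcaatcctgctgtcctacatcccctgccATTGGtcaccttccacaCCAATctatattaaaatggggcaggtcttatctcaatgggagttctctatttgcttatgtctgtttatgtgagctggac

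The Insig1 window held CACNCCAC on the minus strand at -9 to -2, counted from a start site whose last upstream base is -1, together with CACGTG at -101 to -96, 1 ATTGG and 3 GGGCGG. CACNCCAC was found in 6.24% of 32851 windows of the same length, and in no other window searched, which leaves out Stard4 and Npc1. The Srebf2 window held TCACCCCA at -162 to -155, a form searched after this window had been read, which occurs in 1.56% of all windows. It also held 1 ATTGG and 5 GGGCGG, which occur in 37.4% and 35.7% of all windows. Scap has a pair of overlapping windows, and CACGTG, present in 7.15% of all windows, lay in both, at -40 to -35 in the printed one. The first of 3 Insig2 windows held 3 ATTGG and no CACGTG, and Mylip held 3 ATTGG and 1 GGGCGG. No match in the printed windows overlapped a match to another motif. A match is a run of letters, and binding was not measured.

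All 7 genes had a signal over 20 in 24 of 24 livers, on the linear scale of the RMA values. Array medians ran from 2.94 to 3.06 (log2), and each array correlated with the others at a median r of 0.975 to 0.986. The labelled tissue fitted its markers, with Alb at 12.98 (log2 mean over the livers) and all 10 measured hepatocyte markers over a signal of 20. Mean signals of the measured adipocyte (4), pancreas (4), striated muscle (6) and lymphocyte and neutrophil (10) markers all lay under 20. 1 liver stood apart in cholesterol genes: in Saturated replicate 2 the mean of 17 cholesterol synthesis enzymes was 7.46, against 8.40 to 9.18 in the other Saturated livers. Values without it stand beside the differences of Srebf2, Insig1 and Npc1 from Saturated. In whole liver, fewer cells of a type and less RNA per cell cannot be told apart. The labels do not name litters, cages or batches, so p-values measure the spread between single mice, and the number of arrays limits their precision.

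None of the 7 genes passed the test between any 2 diets at an adjusted p under 0.05 (limma over the 24 livers, Benjamini-Hochberg over 35556 probe sets). Over all probe sets, 0.00844% passed in Trans against Saturated, 0% in Cis against Saturated and 0.00281% in Trans against Cis. At an unadjusted p under 0.05, Srebf2, Scap and Stard4 were among the probe sets lower than in the Saturated group on both unsaturated diets, 3 of 7 members each time. Of all probe sets, 7.32% reached that p in either direction and 3.54% on the lower side in Trans against Saturated, and 6.57% and 3.27% in Cis against Saturated. In Trans against Cis, 0 of 7 members and 6.16% of all probe sets reached it. These shares also count 12457 probe sets with no gene and those of low signal, unlike the 7 members. In a fit of only the probe sets with a mean signal over 20, 1324 reached it in Trans against Saturated and 1019 in Cis against Saturated. The share among probe sets of like signal was not computed. The count of 3 was not steady: it was 1 in each comparison with Saturated without Saturated replicate 5 or with the methods' post hoc test. The post hoc test, which adjusts for the 3 comparisons, also lowered the count over all probe sets. It was 1180 in Trans and 1011 in Cis, in place of 2603 and 2337. Without Saturated replicate 5 that count was 2428 and 2189. The median log2 difference of the 7 genes was -0.26 in Trans against Saturated, -0.14 in Cis against Saturated and 0.0047 in Trans against Cis, and over all genes it was 0.0038, 0.0036 and 0.0013. Both comparisons with Saturated share the same 8 Saturated livers. The members had also been chosen with earlier results of these data known, so their counts beside these shares are descriptions. Of 13 markers of Kupffer cells and macrophages, the resident phagocytes of liver, 9 were below their Saturated mean in the Trans group (median difference -0.19, 1 of the 9 at an unadjusted p under 0.05) and 12 in the Cis group (median difference -0.21, 0 at that p). The mean over this list was 6.05 to 6.73 in Trans, 6.03 to 6.79 in Cis and 6.04 to 7.08 in Saturated livers, and its part in the members' values was not tested. The moderated F test over the 3 diets passed for 0 members and 0.00281% of all probe sets. At its unadjusted p under 0.05 it held Scap and Stard4, 2 of 7 against 7.14%.

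**Figure D1:**
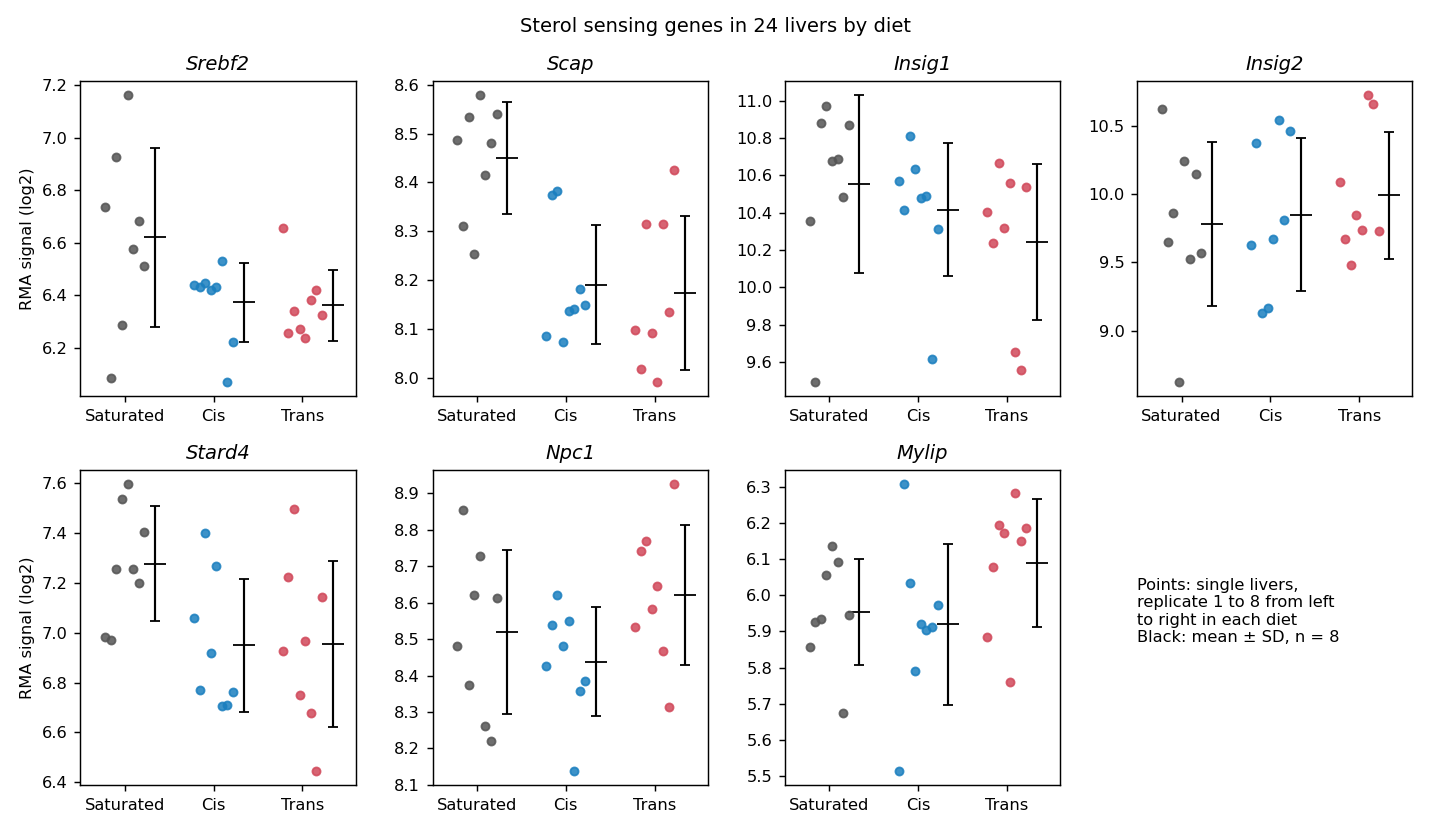
RMA signal (log2, vertical axis) of the 7 genes in each liver by diet, with the points of a diet in the order of replicates 1 to 8 and the mean ± SD (n = 8) in black. Scap lay below the Saturated mean of 8.45 in all 8 Trans and all 8 Cis livers, while the diets overlap for every gene.

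Scap gave the smallest p of the 7 genes. In the Saturated livers its log2 signal ran from 8.25 over a median of 8.48 to 8.58, in the Cis livers from 8.07 over 8.15 to 8.38 and in the Trans livers from 7.99 over 8.12 to 8.43. 5 of 8 Trans and 6 of 8 Cis livers were below every Saturated liver, but the ranges overlapped. The means were 8.45 ± 0.12 in the Saturated, 8.19 ± 0.12 in the Cis and 8.17 ± 0.16 in the Trans group (SD, n = 8). The Trans minus Saturated difference was -0.28 on the log2 scale (SE 0.07, 95% interval -0.42 to -0.13), or 1.21-fold lower. It had p = 6.41e-04 and adjusted p = 0.281 in limma and p = 0.00342 in the exact two-sided permutation test, and ranked 79 of 35556 probe sets. The Cis minus Saturated difference was -0.26 (SE 0.07, 95% interval -0.40 to -0.11), with adjusted p = 0.539 in limma and p = 0.00171 in the exact permutation test. Trans minus Cis was -0.017 (95% interval -0.16 to 0.13). A second Scap probe set with a mean of only 3.02 gave -0.04, -0.19 and 0.15 in these 3 comparisons.

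Srebf2 itself showed differences of like size with more spread. Its log2 signal ran from 6.08 over a median of 6.63 to 7.16 in the Saturated livers, from 6.07 over 6.43 to 6.53 in the Cis livers and from 6.24 over 6.33 to 6.65 in the Trans livers. The Saturated livers were the widest group, with an SD of 0.34 against 0.15 and 0.13, and reached both the highest value and nearly the lowest. Trans minus Saturated was -0.26 (SE 0.11, 95% interval -0.49 to -0.03), with p = 0.0299 and adjusted p = 0.625 in limma and p = 0.0640 in the exact permutation test, and 7 of 8 Trans livers were below the Saturated mean. Cis minus Saturated was -0.25 (SE 0.11, 95% interval -0.48 to -0.02), with adjusted p = 0.742 in limma and p = 0.0828 in the exact permutation test. Trans minus Cis was -0.012 (95% interval -0.24 to 0.22). Without Saturated replicate 2, which held the lowest Saturated value, the differences from Saturated were -0.34 and -0.32, with adjusted p = 0.331 and 0.490 in limma.

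For the INSIG pair, which retains SCAP, the 95% intervals of all differences between diets held 0 in the fit of the 3 diets. Insig1 ran from 9.49 over a median of 10.68 to 10.97 in the Saturated livers, from 9.62 over 10.48 to 10.81 in the Cis livers and from 9.55 over 10.36 to 10.67 in the Trans livers. In each diet 1 or 2 livers, between 9.49 and 9.65, lay well under the rest. Trans minus Saturated was -0.31 (SE 0.20, 95% interval -0.72 to 0.10), with adjusted p = 0.791 in limma and p = 0.182 in the exact permutation test. Without Saturated replicate 2, the lowest liver, it was -0.46 with adjusted p = 0.503 in limma. Cis minus Saturated was -0.14 (95% interval -0.55 to 0.28) and Trans minus Cis -0.18 (-0.59 to 0.24). The Cis value rested on single livers, being -0.29 without Saturated replicate 2 (adjusted p = 0.802 in limma) and -0.022 without Cis replicate 7. Insig2 ran from 8.62 over 9.76 to 10.62 in the Saturated livers, from 9.13 over 9.74 to 10.54 in the Cis livers and from 9.48 over 9.79 to 10.72 in the Trans livers. The 3 medians nearly coincided while single livers of 1 diet lay far apart. Trans minus Saturated was 0.21 (SE 0.26, 95% interval -0.32 to 0.75), an interval that holds sizeable differences in both directions. It was 0.047 without Saturated replicate 4 and 0.33 without Saturated replicate 1. Cis minus Saturated was 0.07 (95% interval -0.47 to 0.60) and Trans minus Cis 0.14 (-0.39 to 0.68).

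**Figure D2:**
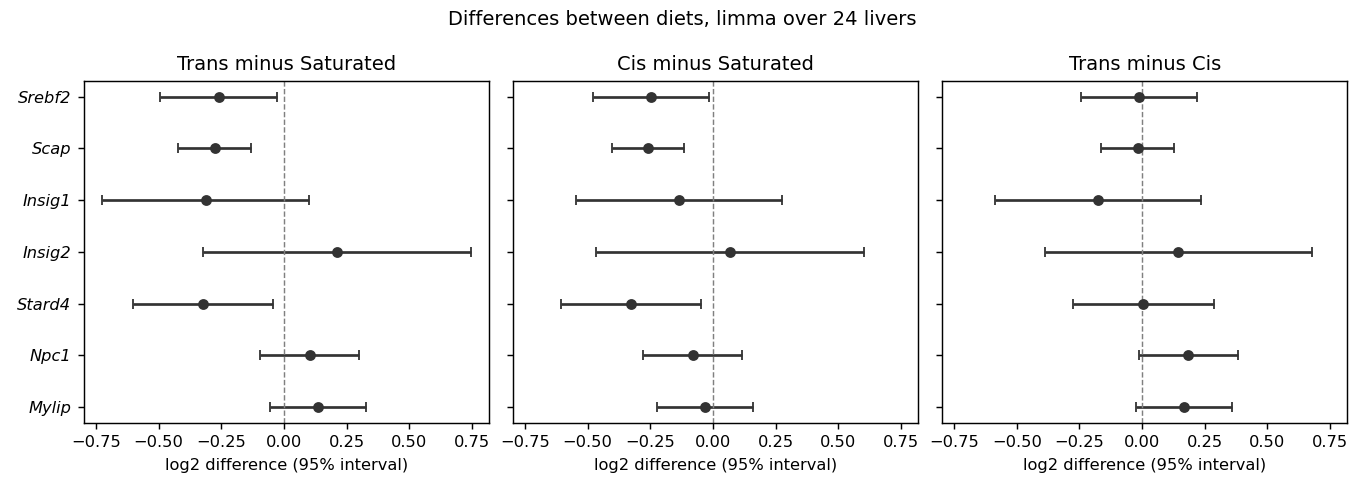
Log2 difference between diets (horizontal axis) for each gene, with the 95% interval of the limma fit over 24 livers. Srebf2, Scap and Stard4 have intervals below 0 in both comparisons with Saturated, and no interval leaves 0 in Trans minus Cis.

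Of the sterol carriers, Stard4 had lower means on both unsaturated diets than in the Saturated group, without passing the adjusted threshold. Its log2 signal ran from 6.97 over a median of 7.26 to 7.60 in the Saturated livers, from 6.71 over 6.84 to 7.40 in the Cis livers and from 6.45 over 6.95 to 7.50 in the Trans livers. 5 of 8 livers on each unsaturated diet were below all Saturated livers, and 7 of 8 were below their mean. Trans minus Saturated was -0.32 (SE 0.14, 95% interval -0.60 to -0.04), with adjusted p = 0.623 in limma and p = 0.0410 in the exact permutation test. Cis minus Saturated was -0.33 (SE 0.14, 95% interval -0.61 to -0.05), with adjusted p = 0.700 in limma and p = 0.0236 in the exact permutation test. Trans and Cis means were 6.95 ± 0.33 and 6.95 ± 0.27 (SD, n = 8).

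Npc1 and Mylip had their highest means in the Trans group. Npc1 ran from 8.22 over a median of 8.55 to 8.86 in the Saturated livers, from 8.14 over 8.45 to 8.62 in the Cis livers and from 8.31 over 8.61 to 8.93 in the Trans livers. 4 Trans livers were above every Cis liver and 7 of 8 were above the Cis mean. Trans minus Cis was 0.18 (SE 0.10, 95% interval -0.01 to 0.38), with adjusted p = 0.806 in limma and p = 0.0497 in the exact permutation test. Against Saturated, the Npc1 differences were 0.10 in Trans (95% interval -0.09 to 0.30) and -0.08 in Cis (-0.28 to 0.12), and without Saturated replicate 2 they were 0.15 and -0.033 (adjusted p = 0.749 and 0.962 in limma). The Trans difference was 0.060 without Trans replicate 8. Mylip ran from 5.68 over 5.94 to 6.14 in the Saturated livers, from 5.51 over 5.92 to 6.31 in the Cis livers and from 5.76 over 6.16 to 6.28 in the Trans livers. 5 Trans livers were above every Saturated liver, with a Trans minus Saturated difference of 0.14 (SE 0.09, 95% interval -0.06 to 0.33) and p = 0.118 in the exact permutation test. Its Trans minus Cis difference was 0.17 (95% interval -0.02 to 0.36). In the Trans minus Cis comparison 10 of 10 endothelial markers were higher in Trans (median 0.11, 3 at an unadjusted p under 0.05), with a mean over the list of 6.99 to 7.29 in Trans, 6.85 to 7.19 in Cis and 6.96 to 7.22 in Saturated livers. Of 12 stellate cell and fibroblast markers 8 were higher (6 at an unadjusted p under 0.05) and 4 lower (2 at that p), with a median of 0.25, and their list mean was 5.54 to 6.39 in Trans and 5.39 to 5.85 in Cis livers. Their part in the Npc1 and Mylip values was not tested.

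The 7 genes differed widely in how much they varied between livers of the same diet. The pooled within-diet SD was 0.54 for Insig2, higher than in 98.4% of 8298 genes with a mean signal over 20, and its signal spanned 4.28-fold from the lowest to the highest liver. Insig1 had an SD of 0.42, higher than in 96.1% of these genes. Stard4 (0.28), Srebf2 (0.23), Npc1 (0.19) and Mylip (0.18) followed, and Scap, at 0.13, varied less than most, with 23.98% of these genes below it.

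Livers of the same diet that were high in Stard4 were high in Insig1 and low in Insig2. Over deviations from the diet mean in 24 livers, 2 of 21 pairs of members passed by Pearson's r and 6 by Spearman's rho at an adjusted p under 0.05 in a permutation test within diets. Insig1 and Stard4 had r = 0.709 (adjusted p = 0.00231) and rho = 0.744 (adjusted p = 0.00231), and r was 0.800 in Trans, 0.605 in Cis and 0.740 in Saturated. Insig2 and Stard4 had r = -0.653 (adjusted p = 0.00787) and rho = -0.699 (adjusted p = 0.00385), with r of -0.857 in Trans, -0.718 in Cis and -0.425 in Saturated. Without the 2 livers farthest from the median of the first gene the values were 0.733 and -0.618. Insig1 and Insig2 had rho = -0.675 (adjusted p = 0.00385), whereas r = -0.475 did not pass (adjusted p = 0.105). The other pairs that passed by rho alone were Stard4 with Npc1 (rho = 0.595), Scap with Mylip (0.552) and Insig2 with Npc1 (-0.545). Srebf2 and Scap, partners in the escort complex, had r = 0.401 (adjusted p = 0.120), made up of 0.0858 in Trans, 0.0783 in Cis and 0.846 in Saturated livers.

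**Figure D3:**
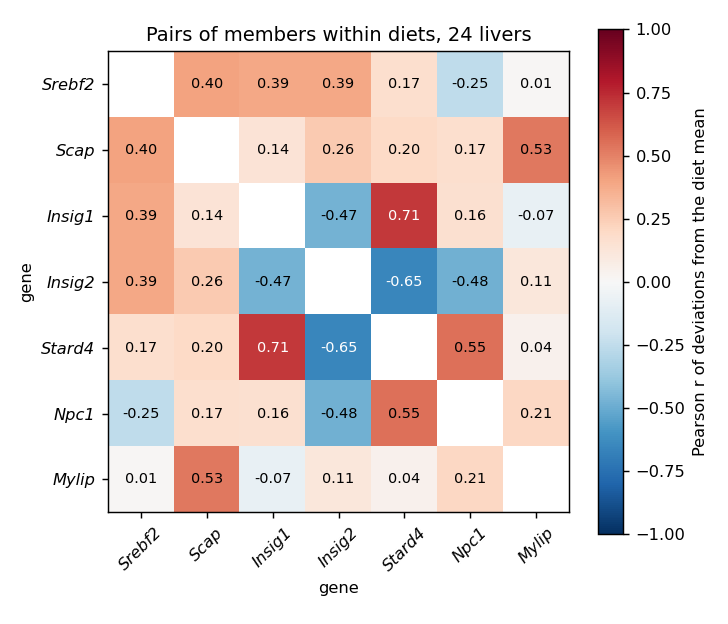
Pearson r between pairs of the 7 genes (both axes) over deviations from the diet mean in 24 livers, from -1 (blue) to 1 (red). The strongest entries are Insig1 with Stard4 at 0.71 and Insig2 with Stard4 at -0.65.

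Over all 24 livers Srebf2 had the highest r of the 7 genes with the enzymes of cholesterol synthesis, although the difference between members was not tested and the order differed in the Trans livers. The 17 measured enzymes were all lower in Trans than in Saturated (median -0.73) and in Cis than in Saturated (median -0.57), and 13 of 17 were lower in Trans than in Cis (median -0.19). Of all genes, 51.6%, 51.4% and 50.5% were higher in these 3 comparisons. None of the enzymes was called, and 17, 14 and 0 of them had an unadjusted p under 0.05. Of all probe sets, 3.54% and 3.27% had that p on the lower side against Saturated, and 6.16% in either direction in Trans against Cis. Relations among the enzymes were not tested, so the counts cannot be read as separate results. The smallest p over the diets belonged to Idi1 (Trans minus Saturated -1.19), Fdft1 (-0.80) and Tm7sf2 (-0.69). Across the 24 livers, Srebf2 had r = 0.807 with the mean of the enzymes and rho = 0.756. Its permutation p was 1e-05 for r, the smallest that the 100000 resamples can give, and 2e-05 for rho. Insig1 had r = 0.681 (rho = 0.678), Stard4 0.629 (rho = 0.644) and Scap 0.628 (rho = 0.624). All 4 had an adjusted p over 7 relations of at most 0.00217 for r and 0.00262 for rho. Insig2 (r = -0.013), Npc1 (-0.169) and Mylip (-0.220) did not pass. Without the 2 livers farthest from the median, Saturated replicates 3 and 5, r was 0.711 for Srebf2, 0.667 for Insig1, 0.552 for Stard4 and 0.492 for Scap.

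With the diet means removed the values were smaller. Over deviations from the diet mean, r was 0.743 for Srebf2 (adjusted p = 0.00119), 0.677 for Insig1 (adjusted p = 0.00794), 0.478 for Stard4 (adjusted p = 0.0358) and 0.342 for Scap (adjusted p = 0.180), all by permutation within diets. Spearman's rho passed for Srebf2 alone (0.604, adjusted p = 0.0179), with 0.462 for Insig1 (adjusted p = 0.0684), 0.50 for Stard4 (adjusted p = 0.0606) and 0.295 for Scap (adjusted p = 0.309). They also rested on a pair of livers. Without Saturated replicate 2 and Cis replicate 7, r was 0.533 for Srebf2 (adjusted p = 0.0590), 0.304 for Insig1 (adjusted p = 0.450) and 0.382 for Stard4 (adjusted p = 0.375). Within single diets Srebf2 had r = 0.843 in Saturated, 0.773 in Cis and 0.400 in Trans livers. In Trans livers Stard4 (0.734), Npc1 (0.501) and Insig1 (0.474) had a higher r than Srebf2. The Srebf2 window printed above holds TCACCCCA, a form searched after that window had been read, and that of Insig1 holds CACNCCAC. Whether these letters bear on r was not tested, and no Stard4 window was searched.

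**Figure D4:**
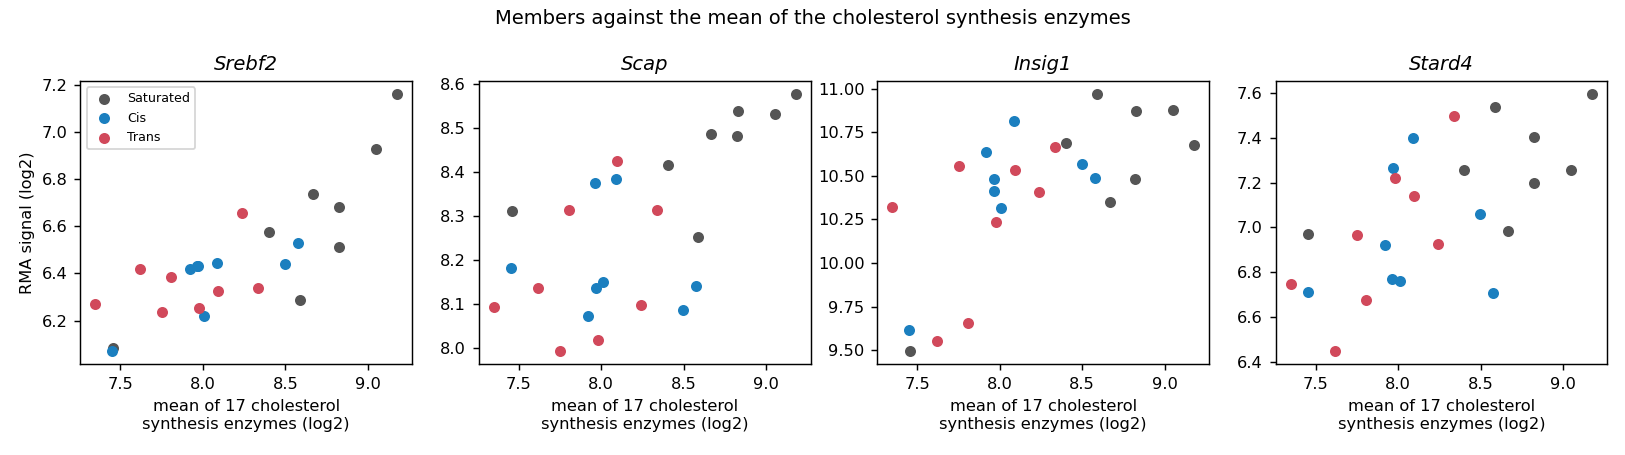
RMA signal (log2, vertical axis) of Srebf2, Scap, Insig1 and Stard4 against the mean log2 signal of 17 cholesterol synthesis enzymes (horizontal axis), 1 point per liver, coloured by diet. Over all livers r is 0.81, 0.63, 0.68 and 0.63, and 1 Saturated liver at 7.46 lies far left of the other Saturated livers.

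The genes with the most similar pattern over the 24 livers, among 8297 others with a mean signal over 20, differed from member to member. For Srebf2 they were Pxdc1 (r = 0.822) and 4 enzymes of cholesterol synthesis, Lss (0.807), Fdft1 (0.806), Pmvk (0.806) and Cyp51 (0.803). Insig1 was followed by Slc25a44 (0.864), Aacs (0.844), Slc25a1 (0.833), the citrate carrier of mitochondria, Mvd (0.822), of the mevalonate pathway, and Fasn (0.816), the fatty acid synthase. Insig2 was nearest to Clpx (0.927), Tjp3 (0.921), Pnkd (0.911), Fas (0.902) and Lgalsl (0.898). Stard4 was nearest to Tram1 (0.819), Abcb10 (0.728), Mblac2 (0.717), Avpi1 (0.715) and Insig1 (0.710). Npc1 was nearest to Aspg (0.817), Bmf (0.796), Slc2a5 (0.784), Gstt2 (0.778) and the clock gene Cry2 (0.764). Scap was nearest to Atp6v1g1 (0.761), Kat5 (0.701), Ebp (0.699), Pdzk1ip1 (0.698) and Camk1d (0.692), and Mylip to Spred2 (0.672), Krba1 (0.665), Rnf114 (0.632), Sdha (0.619) and Rab17 (0.612). These values are descriptions over livers that share diets, and have no p.

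Insig2, Npc1, Stard4 and Insig1 varied with circadian clock genes, a comparison chosen after the nearest genes had been seen. Of 13 measured clock genes, in deviations from the diet mean and with adjustment over 91 relations in a permutation test, Insig2 passed by r with 13 (4 positive, 9 negative), Npc1 with 12, Stard4 with 11, Insig1 with 4 and Srebf2 with 1, while Scap and Mylip passed with 0. By rho the counts were 13 for Insig2, 10 for Npc1, 9 for Stard4, 10 for Insig1, 4 for Srebf2, 1 for Scap and 0 for Mylip. How many of all genes would pass with each member was not tested, so these counts have no background share. Relations among the clock genes were not tested either, so the counts cannot be read as separate results. Of the 13 clock genes, 11 reached the mean signal required of the nearest genes. Per3, a period gene of the clock, ran from 2.99 over a median of 5.23 to 6.08 in the Trans livers, from 3.72 over 5.25 to 6.04 in the Cis livers and from 3.01 over 4.50 to 6.09 in the Saturated livers. These ranges overlap almost wholly, and Per3 did not pass between diets (Trans minus Saturated 0.36, SE 0.50, adjusted p = 0.929 in limma). Its lowest values, 2.99 in Trans and 3.01 in Saturated, lay within the array medians of 2.94 to 3.06 and under a signal of 20. Low Per3 values are therefore weak signals. Insig2 had r = -0.901 with Per3 (adjusted p = 1.01e-04) and rho = -0.845 (adjusted p = 2.27e-04), with r of -0.958 in Trans, -0.977 in Cis and -0.828 in Saturated livers, and -0.913 without the 2 livers farthest from the median of Per3. With Arntl, an activator of the clock, it had r = 0.902. Stard4 had r = 0.714 with Per3 (adjusted p = 0.00197) and rho = 0.664 (adjusted p = 0.00555), with r of 0.840, 0.782 and 0.503 in Trans, Cis and Saturated livers, and 0.678 without the 2 farthest. Npc1 had r = 0.656 with Per3 (adjusted p = 0.00602) and rho = 0.653 (adjusted p = 0.00625), and r = 0.806 with Cry2. Insig1 had r = 0.509 with Per3 (adjusted p = 0.0380) and rho = 0.701 (adjusted p = 0.00316), but r was 0.975 in Trans, 0.320 in Cis and 0.220 in Saturated livers. Scap had r = -0.205 and Mylip -0.154 with Per3. The variation was not particular to clock genes. In deviations from the diet mean Insig2 had r = 0.932 with Clpx and 0.928 with Tjp3, both among its nearest genes. Its largest r in size with a clock gene was 0.902. Over the same deviations Insig2 had r = 0.832 with Pdk4 and -0.778 with Srebf1, of feeding-state genes, and -0.792 with Abcg5, of LXR targets. With Fasn (-0.129) and Abca1 (-0.049), of the same lists, its r was small. Insig1 had r = 0.820 with Fasn and 0.782 with Acly, against 0.684 with the clock gene Bhlhe40, but 0.004 with Irs2. What lies behind these values was not tested. The hour at which each liver was taken is not given in the sources used here.

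**Figure D5:**
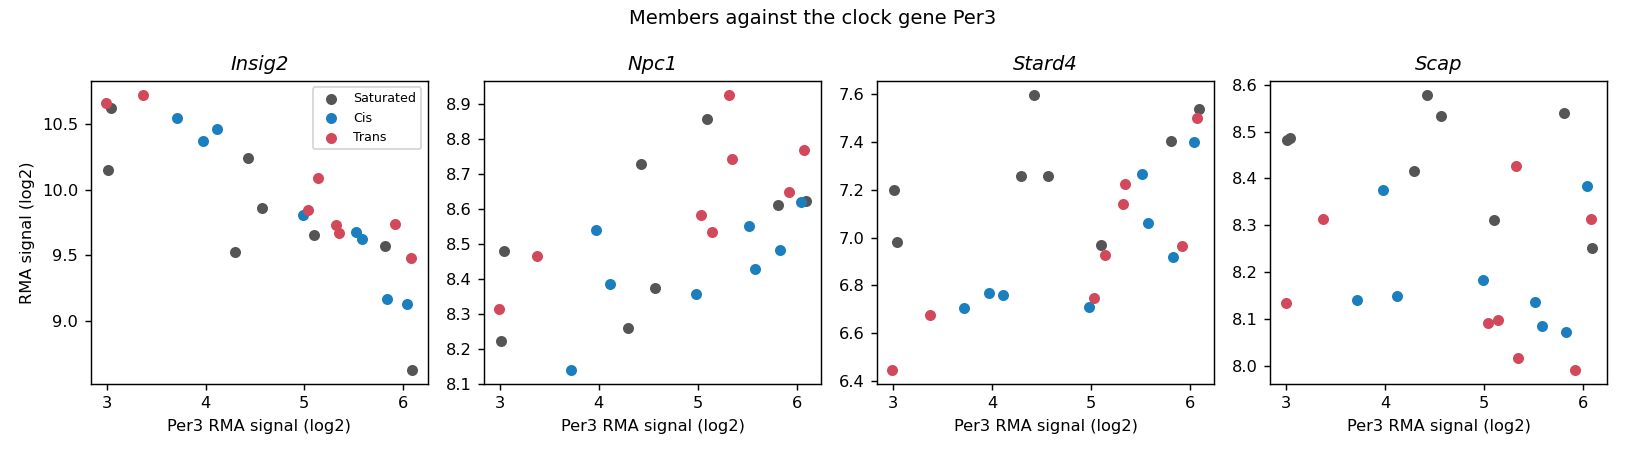
RMA signal (log2, vertical axis) of Insig2, Npc1, Stard4 and Scap against that of the clock gene Per3 (log2, horizontal axis), 1 point per liver, coloured by diet. In each diet Insig2 is high in the livers with little Per3 (r = -0.901 over deviations from the diet mean), while Scap has r = -0.205.

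With the level of Per3 as a covariate, also chosen after seeing the data, the differences of these genes between diets had smaller errors. Smaller errors follow from choosing a covariate that these genes had been seen to vary with. Per3 itself differed from Saturated by 0.36 in Trans and 0.43 in Cis (SE 0.50 each), which also moves the differences in this fit. In some livers Per3 was a weak signal, as given above. Insig2 was 0.38 higher in Trans than in Saturated (SE 0.12 in place of 0.26, 95% interval 0.13 to 0.62, adjusted p = 0.403 in limma) and 0.27 higher in Cis than in Saturated (SE 0.12, adjusted p = 0.745). Stard4 was lower by 0.39 in Trans (SE 0.10, adjusted p = 0.287) and by 0.41 in Cis (SE 0.10, adjusted p = 0.472). Insig1 was lower by 0.38 in Trans than in Saturated (SE 0.18, 95% interval -0.75 to -0.014, adjusted p = 0.641). Npc1 was 0.19 higher in Trans than in Cis (SE 0.08, adjusted p = 0.724). With Arntl in place of Per3, Insig2 was 0.40 higher in Trans than in Saturated (SE 0.12, adjusted p = 0.397). None of the 7 genes was called in these fits. In Trans against Saturated 5 of 7 had an unadjusted p under 0.05 with Per3 in place of 3 without it. Over all 35556 probe sets, 2705 had that p with Per3 and 2603 without it. In Cis against Saturated the count was 3 with Per3 as without it, where Insig2 entered and Srebf2 left (unadjusted p = 0.0612 in limma). Over all probe sets in Cis against Saturated, 2266 had that p with Per3 and 2337 without it. With Arntl the counts were 4 of 7 in Trans and 2 of 7 in Cis, beside 2628 and 2258 of all probe sets.

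Among other genes of the pathway, 0 were called in any comparison, and they are given here by counts. Of all 18820 genes, 51.6% were higher in Trans than in Saturated. Of 22 measured genes of SREBP processing and turnover, 14 were higher in Trans than in Saturated livers and 8 were lower (median difference 0.03). Srebf1, the gene of SREBP1, differed by 0.33 (Trans) and 0.53 (Cis) from Saturated, the opposite sign to Srebf2, with unadjusted p = 0.135 and 0.0197 in limma. Of 19 genes of endolysosomal and non-vesicular sterol transport, 9 were higher on the Trans diet than on the Saturated diet and 10 were lower (median -0.0021), and Gramd1c, one of the GRAMD1 sterol carriers, had a difference of -0.32 (SE 0.08, adjusted p = 0.257 in limma). Lamp1, a lysosomal membrane protein, differed by 0.15. Of 12 genes that act on lipoprotein receptors and their sorting, 8 were lower (median -0.03), with Sort1, the sorting receptor sortilin, at -0.39 in Trans and -0.48 in Cis against Saturated. Of 9 genes listed for LXR and its targets, the group to which Mylip belongs by its regulation, 8 were higher in Trans than in Saturated (median 0.07). The lower one was Nr1h4 (-0.09), the gene of another receptor, FXR, and the list also holds the partner receptor Rxra (0.04). Abcg5 was at 0.34 and Abcg8 at 0.40, which together form a sterol exporter. The targets Abca1 and Abcg1 were at 0.07 each. Of 12 feeding-state genes, a list that holds genes of glucose output and of fatty acid synthesis alike, 10 were lower (median -0.33). Ppargc1a, with the smallest p of the F test in this list, was at -0.33 in Trans and -0.51 in Cis against Saturated. G6pc, of glucose output, was at -0.57 in Trans and -0.06 in Cis. Of 13 clock genes 6 were higher and 7 lower (median -0.05).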

How the data were processed

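Liver RNA of each of 24 mice was measured on 1 array (Affymetrix Mouse Gene 1.1 ST). The authors applied RMA (background correction, quantile normalization, summary over probes), and the deposited values are log2 signals. The software versions are not given in the sources used here. Of 35556 probe sets, 21218 have a single gene. The members and gene lists were chosen with earlier results of these data known. Here limma 3.58.1 in R 4.3.3 fitted the 3 diets over all livers (lmFit, eBayes), two-sided, with Benjamini-Hochberg adjustment over all probe sets. Exact permutation tests used 12870 splits, and correlations 100000 permutations (scipy 1.17.1). Genes named beside the members are up to 3 per list with the smallest p of the F test, and the 5 nearest to each member by r. Per3, Arntl and further genes of the clock, feeding-state and LXR lists were named after their values were seen. Mean signal here is 2 to the power of the mean log2 value over livers. Alternatives were other fits, scalings, filters and probe sets, a replicate block, the methods' post hoc test, clock covariates and leaving out each liver.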

Additional observations from a re-analysis of the deposited data

Results flagged for a closer look

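Of 24 groups of 8 livers checked (7 members and the synthesis mean in 3 diets), 4 held a liver far from the other 7, where chance gives about 1 in 20 groups. Srebf2 in Trans replicate 1 was 6.65 (log2), with the next liver at 6.42 and the lowest at 6.24. Insig1 in Saturated replicate 2 was 9.49, with the next at 10.35 and the highest at 10.97. In the same liver the mean of the 17 cholesterol synthesis enzymes was 7.46, with the next at 8.40. Insig1 in Cis replicate 7 was 9.62, with the next at 10.31.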

How the results depend on the processing

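No member was called under any alternative or without any liver. The members at an unadjusted p under 0.05 were 3 against Saturated on each unsaturated diet, 1 each with the methods' post hoc test, 2 each with only 2 diets or array weights, 5 (Trans) and 3 (Cis) with the Per3 covariate, and 4 (Trans) and 2 (Cis) with Arntl. Of all probe sets, 2603 (Trans) and 2337 (Cis) had that p, and 1180 and 1011 with the post hoc test. The numbers were 2720 and 2249 with only 2 diets, and 2882 and 2358 with array weights. With Per3 they were 2705 and 2266, and with Arntl 2628 and 2258. The member counts below are those with each liver left out. These ran from 1 to 4 in Trans and from 1 to 3 in Cis, the 1 in both without Saturated replicate 5 and the 4 without Saturated replicate 2. The called probe sets, 3 in Trans against Saturated, 0 in Cis against Saturated and 1 in Trans against Cis, were few enough to move with most settings. For Trans against Saturated they were 0 with only 2 diets fitted or the methods' post hoc test, 1 with median centring or either clock covariate, and 5 with the replicate block. For Trans against Cis they were 0 with only 2 diets, the block, the post hoc test, the signal filter or the Per3 covariate. With each liver left out they ran from 1 to 16, from 0 to 3 and from 0 to 2, and the 16 and 3 came without Saturated replicate 2. Replicate numbers did not pair the livers (0 of 24 same-number pairs had a correlation of deviations over 0.1, and 4 livers of 24 correlated best with their own number), so the block only shows how counts move. Differences near 0 changed sign in Trans minus Cis: Scap gave 0.0056 with array weights and 0.15 with its other probe set, and Stard4 gave -0.0054 with repeated quantile normalization and -0.0025 with median centring. With each liver left out, Trans minus Cis ran from -0.056 to 0.0100 for Srebf2, -0.053 to 0.010 for Scap and -0.073 to 0.077 for Stard4, and Cis minus Saturated from -0.097 to 0.19 for Insig2 and -0.089 to 0.025 for Mylip. The correlations with the synthesis mean over 8 livers of 1 diet were less certain. They were 0.400 (Srebf2), 0.389 (Scap), 0.474 (Insig1), 0.734 (Stard4) and 0.501 (Npc1) in Trans, and 0.773 (Srebf2), -0.184 (Scap), 0.650 (Insig1), 0.215 (Insig2) and 0.125 (Stard4) in Cis. In Saturated they were 0.719 (Scap), 0.814 (Insig1), 0.269 (Insig2), 0.604 (Stard4) and 0.058 (Mylip). Over deviations from the diet mean they were 0.342 for Scap and 0.104 for Insig2, and without the 2 farthest livers, an alternative chosen after seeing the data, 0.533 (Srebf2), 0.271 (Scap), 0.304 (Insig1), 0.094 (Insig2), 0.382 (Stard4) and 0.157 (Npc1). The cause of these shifts was not tested. The number of arrays, 8 per diet, limits what could be called.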
